A study of Homo sapiens with 10 samples.

Results

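TREM2 is a microglial surface receptor for lipids, lipoproteins and amyloid, and it passes its signal through TYROBP, a small adaptor that carries an immunoreceptor tyrosine-based activation motif (ITAM). The 9 human genes of this chain were chosen by name among the 36591 human genes of the count table. They are the receptors *TREM2* and *TREM1*, the adaptors *TYROBP* and *HCST*, the kinases *SYK* and *BTK*, the lipase *PLCG2*, the exchange factor *VAV1* and the inositol phosphatase *INPP5D*. Of these, 8 passed the filter on low counts and *TREM1* did not.

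Human microglia (hMG) derived from the H9 embryonic stem cell line were transplanted into mouse brain at postnatal day 4 and sorted as CD11b+, human CD45+ cells at 6 months of age. The host of 5 libraries was the AppHu mouse (genotype label Rag2KO-hCSF1KI-AppKI), whose *App* gene encodes a humanised amyloid-β sequence without familial mutations. The host of the other 5 was the AppSAA mouse (Rag2KO-hCSF1KI-AppSAA), which has the same humanised sequence with the Swedish, Arctic and Austrian mutations. All hosts lacked *Rag2*, and with it mature B and T cells, carried human *CSF1* in place of the mouse gene, and had received the CSF1R inhibitor BLZ945 before grafting to deplete their own microglia. Each library came from 1 hemisphere, all grafts were of 1 stem cell line, and both groups held mice of both sexes, with the sex of each library not given in the labels. The comparison asks whether RNA of the chain differs in hMG that have lived among amyloid plaques.

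In this chain a lysine within the membrane segment of the receptor pairs with an aspartate in the membrane segment of the adaptor. SRC-family kinases then phosphorylate the ITAM of TYROBP, SYK docks on it, and PLCG2, VAV1 and BTK act downstream, producing calcium signals and actin remodelling. HCST (DAP10) instead carries a motif that recruits phosphatidylinositol 3-kinase. INPP5D (SHIP1) removes a phosphate from the lipid product of that kinase and so restrains the signal. In mice, microglia that lack *Trem2* fail to take on the full disease-associated (DAM) state around plaques, and variants at *TREM2*, *PLCG2* and *INPP5D* are associated with the risk of Alzheimer's disease.

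The coding sequences of the membrane segments are shown because they are the parts by which receptor and adaptor meet. They were read from GENCODE 44 on GRCh38, 5′ to 3′ on the coding strand, with the codon of the charged residue in capitals. This codon was the lysine codon 186 of 230 in *TREM2* (chr6:41158961-41159023, minus strand), the lysine codon 217 of 234 in *TREM1* (chr6:41276149-41276211, minus strand), the aspartate codon 50 of 113 in *TYROBP* (chr19:35907495-35907557, minus strand) and the aspartate codon 57 of 93 in *HCST* (chr19:35903801-35903863, plus strand). Each stretch lies within 1 coding exon.
TREM2: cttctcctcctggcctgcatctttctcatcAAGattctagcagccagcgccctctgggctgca
TREM1: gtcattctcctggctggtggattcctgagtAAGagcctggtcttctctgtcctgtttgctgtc
TYROBP: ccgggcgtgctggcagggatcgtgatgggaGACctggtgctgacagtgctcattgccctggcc
HCST: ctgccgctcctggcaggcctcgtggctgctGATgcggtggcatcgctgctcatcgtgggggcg

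The intracellular motifs tell the adaptors apart. In *TYROBP* the capitals mark the tyrosine-containing elements of the ITAM (within codons 88 to 108, chr19:35904587-35907232, minus strand, joined from 2 exons with the intron left out). In *HCST* they mark the element that binds phosphatidylinositol 3-kinase (within codons 78 to 93, chr19:35903894-35904157, plus strand, also joined from 2 exons).
TYROBP ITAM: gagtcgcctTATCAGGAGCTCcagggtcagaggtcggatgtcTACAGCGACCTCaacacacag
HCST motif: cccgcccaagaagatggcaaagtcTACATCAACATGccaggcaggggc

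By the same annotation, *TREM2* (chr6:41158506-41163186) and *TREM1* (chr6:41267926-41286682) lie on the minus strand of one receptor cluster. *TYROBP* (chr19:35904401-35908295, minus strand) and *HCST* (chr19:35902529-35904377, plus strand) point at each other with 23 bases between their ends. The remaining genes are *SYK* (chr9:90801787-90898549, plus), *PLCG2* (chr16:81779279-81962685, plus), *INPP5D* (chr2:233059967-233207903, plus), *VAV1* (chr19:6772708-6857366, plus) and *BTK* (chrX:101349338-101390796, minus). *PLCG2* shares 4141 exon bases with a long non-coding RNA on its own strand, *HCST* 258 and *INPP5D* 82 with genes on the opposite strand, and the strand setting of the counting is not given in the sources used here. Reads in those stretches could not be divided between the genes.

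Library totals ranged from 25040739 to 39641854 counts, and 2.12 to 4.97% of them lay on mouse genes. The sorted cells carried all 11 microglia markers, with a summed level of 40973 to 46268 CPM (counts per 1000000 human counts) in AppHu and 35195 to 44410 in AppSAA. The 6 markers of CNS-associated macrophages, which the gate also admits, summed to 3487 to 4070 CPM in AppHu and 2927 to 3785 in AppSAA. The library that stood furthest apart was AppSAA replicate 5. Of 5488 genes with a mean of at least 1000 counts, 551 were more than 0.5 on the log2 scale below the median of the other libraries in it. AppHu replicate 6 came next with 301 such genes, and the remaining libraries had 4 to 59. Genes higher by more than 0.5 were most numerous in AppSAA replicate 7 (177) and AppHu replicate 7 (148). Results of the chain genes are therefore given with and without AppSAA replicate 5, and most of those of other genes from all 10 libraries only. The cause of the deviations was not tested.

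Across the chain, no gene passed the threshold. With edgeR's quasi-likelihood test, 12 of 15455 human genes (0.0776%) had a Benjamini-Hochberg adjusted p under 0.05, and 0 of the 8 chain genes tested did. At an unadjusted p under 0.05 the count was 1 of 8, namely *SYK*, against 9.80% of all genes. DESeq2 called 1.51% of the genes to which it gave an adjusted p and 0 of the 8. The values of the groups did not overlap for 1 of the 8, again *SYK*, against 2.49% of all genes. Without AppSAA replicate 5, 0.220% of all genes and 0 of the 8 were called. The median log2 fold change of the 8 (AppSAA minus AppHu) was -0.09, or -0.06 without replicate 5, and that of all genes tested was 0.0018. A small negative change was not particular to the chain. The 11 microglia markers had log2 fold changes from -0.17 (*C1QA*, edgeR adjusted p = 0.329) to -0.03 (*PTPRC*, adjusted p = 0.918). In bulk libraries, fewer cells of a type and less RNA per cell cannot be told apart. Taking the 95% intervals of the fitted differences, the ratio of AppSAA to AppHu lay between 0.942 and 1.16 for *TREM2* and between 0.864 and 1.05 for *TYROBP*.

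**Figure D1:**
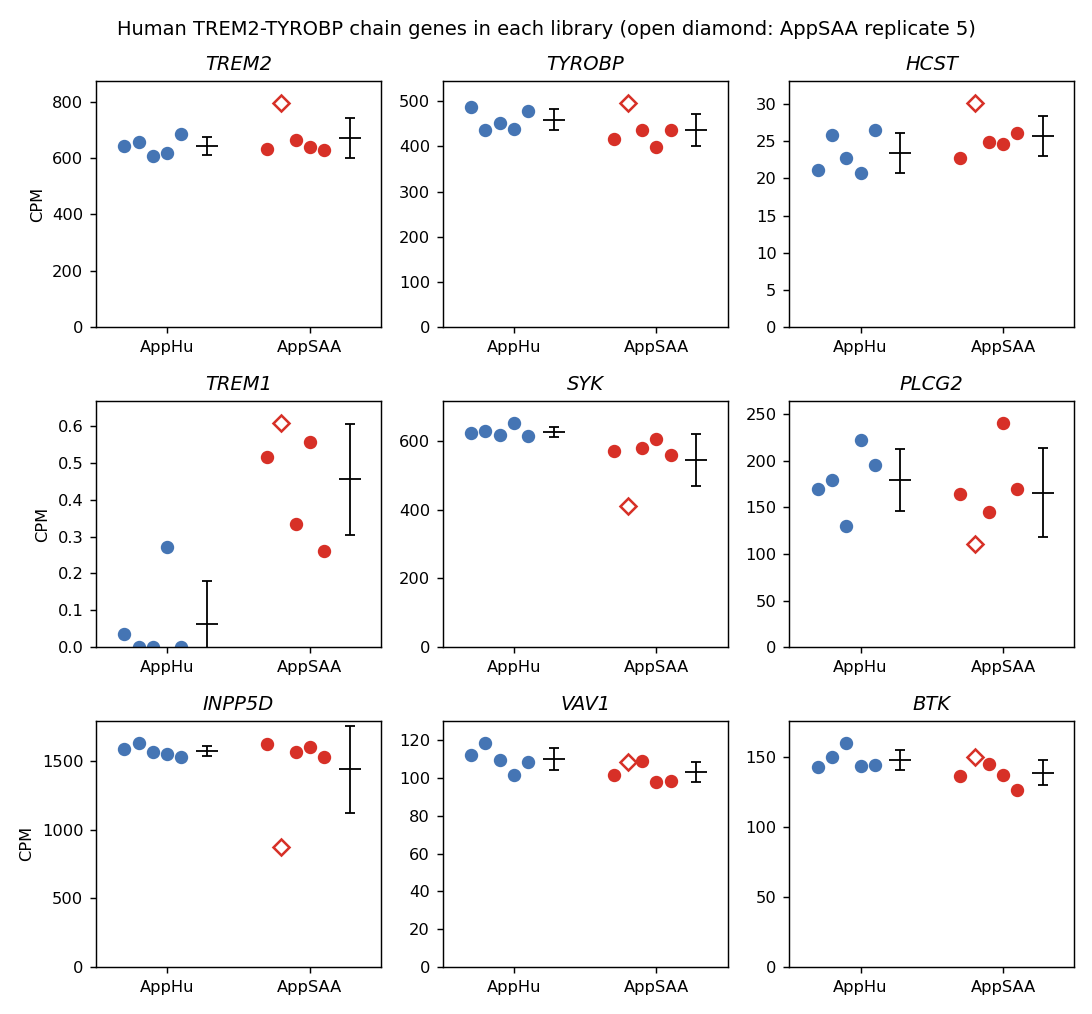
CPM of each chain gene in the 5 AppHu (blue) and 5 AppSAA (red) libraries, with AppSAA replicate 5 as an open diamond and the black mark and bar giving the mean ± SD; each panel has its own axis from 0, where the bar of *TREM1* in AppHu is cut off. *SYK* is the gene whose groups do not overlap (615 to 651 against 411 to 606), and in *INPP5D* replicate 5, at 878 CPM, lies far below the other 9 libraries.

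*TREM2*, the receptor, was measured at 643, 655, 607, 618 and 685 CPM in AppHu replicates 3, 4, 6, 7 and 8, and at 633, 794, 665, 637 and 628 CPM in AppSAA replicates 4, 5, 6, 7 and 8. All libraries but AppSAA replicate 5 lay within the range of AppHu. The means were 642 ± 31.0 CPM in AppHu and 671 ± 69.8 CPM in AppSAA (SD, n = 5 each). The log2 fold change was 0.06 (SE 0.07, 95% interval -0.09 to 0.22, edgeR adjusted p = 0.836). Without AppSAA replicate 5 it was -0.0069 (interval -0.12 to 0.10), and so changed sign with this library. The gene was covered by 15849 to 25254 counts per library, so counting error was small beside the spread between mice.

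*TREM1*, a receptor of blood monocytes and neutrophils that uses the same adaptor, was barely detected. It had 1, 0, 0, 9 and 0 counts in AppHu and 15, 16, 8, 17 and 8 counts in AppSAA, in the same order of replicates, and so fell under the filter. For the AppHu libraries at 0, counting error alone allows up to 3 counts, which is 0.0779 to 0.102 CPM. AppSAA libraries held 0.260 to 0.608 CPM (mean 0.456 ± 0.150, SD, n = 5). AppHu libraries held 0 to 0.272 CPM (mean 0.0615 ± 0.118, SD, n = 5), and AppHu replicate 7 overlapped AppSAA. The two-sided exact permutation test of the single gene gave p = 0.0159, or 0.0317 without AppSAA replicate 5. With no filter, edgeR gave a log2 fold change of 2.81 (SE 0.89) with an adjusted p of 0.363 over 25769 genes, so *TREM1* did not pass. Human monocyte markers were also low in these libraries, at a summed 14.1 to 17.9 CPM in AppHu and 16.3 to 35.9 CPM in AppSAA, with *FCN1* at 0. The highest sum was that of AppSAA replicate 4, where *S100A8* had 456 counts against 5 to 40 in the others. The neutrophil markers summed to 1001 to 1119 CPM in AppHu and 1003 to 1103 CPM in AppSAA. Most of this was *CSF3R* (930 to 1051 and 933 to 1019 CPM), with *MPO* at 0 and *ELANE* at 0 to 1 counts. The part of monocytes and neutrophils in the *TREM1* counts was not tested.

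*TYROBP*, the ITAM adaptor, was at 488, 436, 451, 439 and 479 CPM in AppHu and at 417, 495, 436, 399 and 435 CPM in AppSAA. Replicate 5 was the highest AppSAA library and the other 4 lay below the lowest AppHu library. The margin was narrow, with 435.937 CPM in AppSAA replicate 6 against 436.065 CPM in AppHu replicate 4. The means were 459 ± 23.4 and 437 ± 35.9 CPM (SD, n = 5 each), with a log2 fold change of -0.07 (SE 0.06, interval -0.21 to 0.07, edgeR adjusted p = 0.798). Without replicate 5 the difference was -0.12 (interval -0.24 to -0.0061), with an exact permutation p of 0.0159 for the single gene and an edgeR adjusted p of 0.401, which did not pass. This permutation p is the smallest possible with that library left out, and it follows from the other 4 lying below AppHu. The share of all genes separated without that library is not given.

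*HCST*, the adaptor for phosphatidylinositol 3-kinase, was at 21.1, 25.9, 22.7, 20.8 and 26.5 CPM in AppHu and at 22.7, 30.1, 24.9, 24.6 and 26.0 CPM in AppSAA. Most values were shared by both groups and the highest was again AppSAA replicate 5. The log2 fold change was 0.13 (SE 0.10, interval -0.09 to 0.36, edgeR adjusted p = 0.746) and 0.07 without replicate 5. The difference was within the spread between libraries in both cases.

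Within a library, the level of *TREM2* per kilobase of its main transcript can be divided by that of *TYROBP*, which needs no scaling by the library total. This ratio was 0.771 to 0.879 (median 0.823) in AppHu and 0.844 to 0.938 (median 0.892) in AppSAA, so the groups overlapped. Among the 28 ratios between the 8 genes, 0 had groups that did not overlap. These ratios reuse the same 8 genes, and no share over ratios of other genes is given.

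*SYK*, the kinase that docks on the phosphorylated ITAM, had the smallest p of the 8 genes that passed the filter. It was at 622, 627, 617, 651 and 615 CPM in AppHu and at 570, 411, 578, 606 and 557 CPM in AppSAA. Every AppSAA library lay below every AppHu library, narrowly in replicate 7 and widely in replicate 5. The means were 626 ± 14.6 and 544 ± 76.8 CPM (SD, n = 5 each), and 578 ± 20.7 CPM (SD, n = 4) in AppSAA without replicate 5. The log2 fold change was -0.20 (SE 0.09, interval -0.39 to -0.01), with an unadjusted edgeR p of 0.0399, which adjusted to 0.477. Without replicate 5 it was -0.12 (SE 0.05, interval -0.22 to -0.02, adjusted p = 0.333). The exact permutation p was 0.00794, the smallest this design can give, and 0.0159 without that library, again the smallest possible. The adjusted p of *SYK* ranged from 0.232 to 0.788 over the 22 alternatives, so the gene was not called in any of them.

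*BTK*, a TEC-family kinase, was at 143, 150, 160, 143 and 144 CPM in AppHu and at 136, 150, 145, 137 and 126 CPM in AppSAA. *VAV1*, the exchange factor for small GTPases of the actin skeleton, was at 112, 119, 110, 102 and 109 CPM in AppHu and at 102, 109, 109, 97.8 and 98.6 CPM in AppSAA. In both genes the groups overlapped, and the lowest library was an AppSAA one and the highest an AppHu one. The log2 fold changes were -0.09 for *BTK* (SE 0.06, edgeR adjusted p = 0.695) and -0.09 for *VAV1* (SE 0.06, adjusted p = 0.683), and neither gene had a deviating value in AppSAA replicate 5. Without that library they were -0.13 for *BTK* (edgeR adjusted p = 0.455) and -0.12 for *VAV1* (adjusted p = 0.507).

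*PLCG2*, the lipase that makes the second messengers for calcium release and protein kinase C, varied most between mice among the 8 chain genes tested. It was at 170, 179, 131, 222 and 195 CPM in AppHu and at 164, 111, 145, 241 and 170 CPM in AppSAA. The lowest and the highest library were both AppSAA. The coefficient of variation was 18.8% in AppHu and 28.6% in AppSAA, against 2.32% and 14.1% for *SYK*. The log2 fold change was -0.11 (SE 0.18, interval -0.51 to 0.28, edgeR adjusted p = 0.903), and -0.0019 without replicate 5. The interval of the ratio of AppSAA to AppHu was correspondingly wide, from 0.704 to 1.22.

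*INPP5D*, the phosphatase that opposes the chain, had the most counts of the set. It was at 1593, 1633, 1567, 1552 and 1530 CPM in AppHu and at 1628, 878, 1568, 1605 and 1535 CPM in AppSAA. The values of 9 libraries lay between 1530 and 1633 CPM, and replicate 5 was far below them. With all libraries the log2 fold change was -0.13 (SE 0.13, interval -0.42 to 0.17, edgeR adjusted p = 0.832). Without replicate 5 it was 0.0036 (SE 0.04, interval -0.09 to 0.10), and the AppSAA mean of 1584 ± 40.9 CPM (SD, n = 4) stood beside 1575 ± 39.7 CPM (SD, n = 5) in AppHu.

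**Figure D2:**
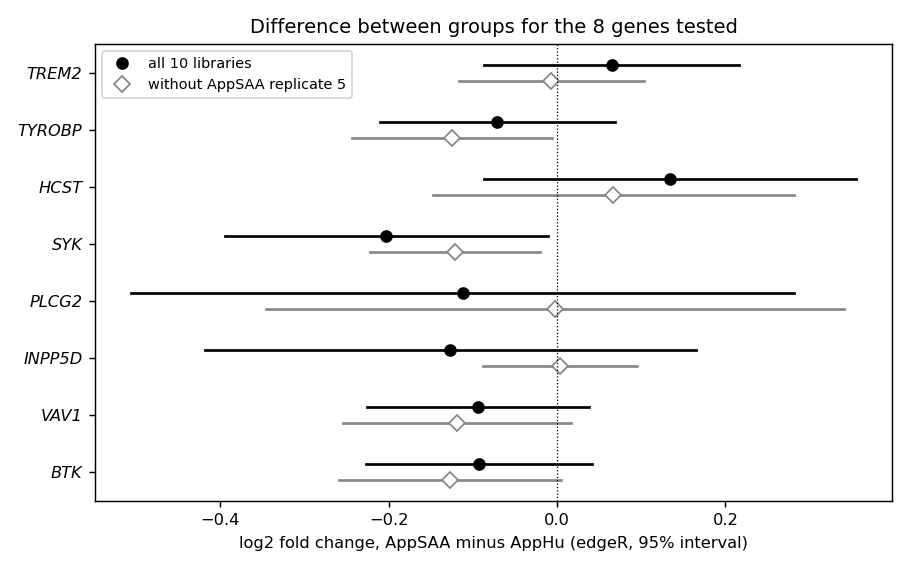
Fitted log2 fold change of the 8 genes tested (horizontal axis, AppSAA minus AppHu, edgeR) with its 95% interval, from all 10 libraries (black circles) and without AppSAA replicate 5 (grey diamonds). The interval of *SYK* lies below 0 in both fits, that of *TYROBP* only without replicate 5, and the intervals of the other 6 genes include 0 in both.

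AppSAA replicate 5 thus moved the chain genes in opposite directions. Against the median of the other 9 libraries, it was lower by 0.84 on the log2 scale for *INPP5D* (-0.84), by 0.62 for *PLCG2* (-0.62) and by 0.58 for *SYK* (-0.58). It was higher for *TREM2* (0.32), *HCST* (0.29) and *TYROBP* (0.18). *BTK* (0.07) and *VAV1* (0.0005) were at the level of the other libraries. The receptor and both adaptors have short transcripts of 983, 575 and 564 bases, and the genes that were low have transcripts of 4902, 8666 and 4973 bases. *BTK* (2575 bases) and *VAV1* (2892 bases) lie between these. A relation of the deviation to transcript length was not tested. *PLCG2* also deviated in other libraries, by -0.38 in AppHu replicate 6, 0.39 in AppHu replicate 7 and 0.50 in AppSAA replicate 7.

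**Figure D3:**
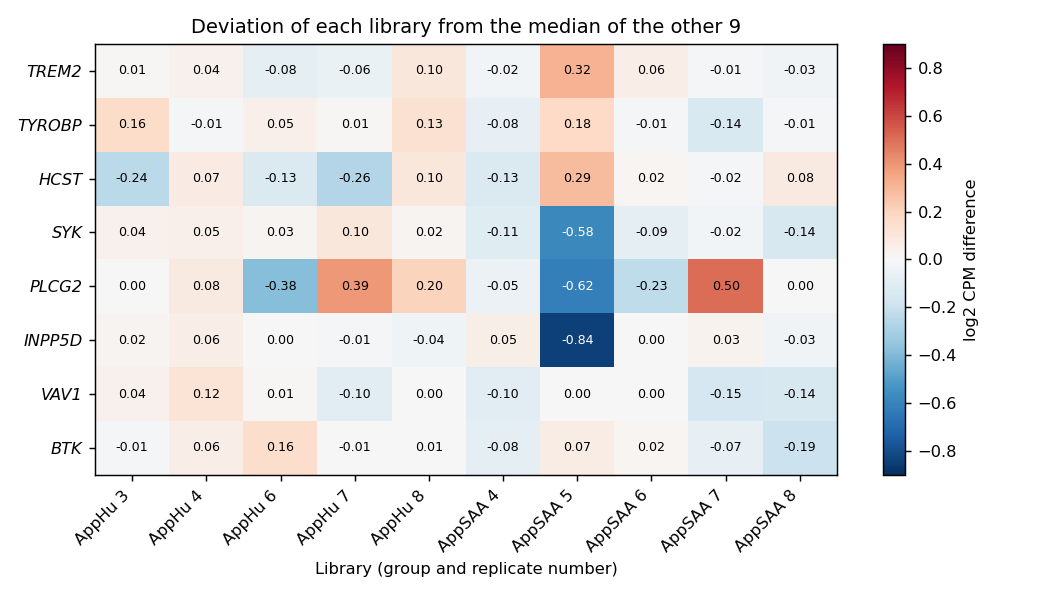
Difference in log2 CPM of each library (columns) from the median of the other 9, for the 8 genes tested (rows), with red for higher and blue for lower. AppSAA replicate 5 holds the lowest values of *INPP5D*, *PLCG2* and *SYK* (-0.84, -0.62 and -0.58) and the highest of *TREM2* (0.32).

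Co-variation between chain genes also changed with this library. Over the deviations of the 10 libraries from their group means, Pearson's r was 0.97 for *SYK* with *INPP5D*, -0.87 for *TREM2* with *INPP5D* and 0.79 for *TREM2* with *TYROBP*. Without replicate 5 these were 0.26, -0.06 and 0.42, and 8 of the 28 pairs changed sign. Genes measured in the same library share its depth and preparation, and these correlations are a description only. The genes most like *TREM2* over the 10 libraries were *ERP29* (r = 0.99), *TMEM109* (0.98), *CD53* (0.97), *DEGS1* (0.95) and *SMUG1* (0.94). Those most like *TYROBP* were *MED8* (0.94), *ATP6V0E1* (0.94), *GPKOW* (0.93), *CD81* (0.93) and *GLB1* (0.93). Without replicate 5, r ran from 0.86 (*CD53*) to 0.96 (*ERP29*) for the genes like *TREM2*. For those like *TYROBP* it ran from 0.85 (*ATP6V0E1*) to 0.99 (*GPKOW*).

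Levels of the genes can be set beside each other per kilobase of the main transcript. In AppHu, *TYROBP* had the highest level at 797 ± 40.8 CPM per kb, followed by *TREM2* at 653 ± 31.6, *INPP5D* at 321 ± 8.09 and *SYK* at 126 ± 2.93 (SD, n = 5). *BTK* at 57.5 ± 2.79, *HCST* at 41.4 ± 4.71, *VAV1* at 38.1 ± 2.10 and *PLCG2* at 20.7 ± 3.90 CPM per kb came next, and *TREM1* was last at 0.0189 ± 0.0364. The order was the same in AppSAA. *HCST* and *VAV1* were not separated in AppHu (36.8 to 46.9 against 35.2 to 41.0 CPM per kb). In AppSAA *TYROBP* (695 to 861) overlapped *TREM2* (639 to 807), and *BTK* (48.9 to 58.2) overlapped *HCST* (40.3 to 53.3). With all annotated exons as the length, *TREM2* (586 CPM per kb in AppHu) came before *TYROBP* (506), and *BTK* moved to place 7, so the order of these neighbours depended on the transcript assumed.

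Around the chain, 120 further genes of the pathway were listed by role, of which 119 were in the table and 104 were tested. Of these, 50 were higher and 54 lower in AppSAA, with 7 in each direction at an unadjusted edgeR p under 0.05 (9.80% of all human genes tested, in either direction), and their median log2 fold change was -0.0090. Only *CD9*, a tetraspanin of the DAM state, passed the threshold. DESeq2 called 3, all higher, against 1.51% of all genes, namely *CD9*, *ITGAX* and *APOE*. The groups did not overlap for 8 of the 104, against 2.49% of all genes. Of these 8, 3 were DAM genes that need TREM2 in mice, and *APOE* was another. The 104 thus include DAM genes, which are not parts of the signalling chain. The lists were chosen with earlier results of these data known, so these shares are not evidence of an excess in the pathway.

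Among receptors of the TREM cluster, *TREML4* was at 2.86 ± 0.499 CPM in AppHu and 1.98 ± 0.296 CPM in AppSAA (log2 fold change -0.53, SE 0.19, edgeR adjusted p = 0.348), and *TREML1* had a log2 fold change of 0.25 (adjusted p = 0.576). *TREML2* was under the filter and *NCR2* at 0 in all libraries. Of the other receptors that use TYROBP, 8 of 13 were tested and 0 had an unadjusted p under 0.05. In this list *CSF1R*, the receptor for the CSF1 supplied by the host, was the most abundant at 10121 ± 451 and 9341 ± 806 CPM (SD, n = 5 each, log2 fold change -0.12, adjusted p = 0.591), and *SIRPB1* had -0.24 (adjusted p = 0.657). *CLEC5A* and *SIGLEC15* were under the filter, *KLRC2* at 0, and *SIGLEC16* was not in the table. The ITAM adaptor *FCER1G*, which serves Fc receptors, was at 492 ± 36.6 and 520 ± 55.5 CPM (log2 fold change 0.08, adjusted p = 0.807), and *CD247* was under the filter.

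Of the kinases that phosphorylate the ITAM and their inhibitory kinase, 6 of 9 were tested, with 3 higher and 3 lower. *FGR* was scarce but did not overlap between groups, at 0 to 1.15 CPM in AppHu and 1.20 to 3.77 CPM in AppSAA. Its log2 fold change of 1.65 (SE 0.60) had an adjusted p of 0.360, and its counts ran from 0 to 115. *FYN*, *LCK* and *BLK* were under the filter. Of the relatives of SYK and BTK, *ZAP70* had 1 to 22 counts per library (log2 fold change 0.56, adjusted p = 0.817) and *TEC* had -0.14 (adjusted p = 0.832). *BMX* was at 0 in all libraries.

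All 19 adaptors and scaffolds were tested, with 11 higher, 8 lower and a median log2 fold change of 0.02. The SYK-binding adaptor *SH3BP2* was at 230 ± 13.4 and 207 ± 9.39 CPM, did not overlap between groups and did not pass (-0.16, SE 0.06, edgeR adjusted p = 0.379). *SKAP2* had 0.15 (adjusted p = 0.511), and *FYB1*, the most abundant of them, had -0.10 (adjusted p = 0.632). Of the 13 genes of phosphatidylinositol 3-kinase and AKT, 4 were higher and 9 lower, with a median of -0.08 and 0 at an unadjusted p under 0.05. The catalytic subunit *PIK3CD* (0.05) and the regulatory subunits *PIK3R5* (-0.14) and *PIK3R6* (-0.10) had adjusted p of 0.859, 0.673 and 0.698.

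Among effectors of PLCG2, *DGKZ*, which removes diacylglycerol, was at 105 ± 4.30 CPM in AppHu and 92.7 ± 3.37 CPM in AppSAA. Its groups did not overlap, with 97.933 as the lowest AppHu and 97.923 CPM as the highest AppSAA value, and the log2 fold change of -0.17 (SE 0.05) had an edgeR adjusted p of 0.281. *RASGRP1*, at 9 to 44 counts, had -0.87 (SE 0.39, adjusted p = 0.492), the calcium channel *ITPR2* had 0.01 (adjusted p = 0.974), and *ITPR3* was under the filter. Of the relatives of VAV1 and the GTPases and actin regulators of this family, 9 of 10 were tested, with 3 higher and 6 lower. At an unadjusted p under 0.05 the count was 0. The GTPases *RAC1* (0.11), *RAC2* (0.18) and *RHOA* (0.06) had adjusted p of 0.655, 0.618 and 0.860, and *VAV3* was under the filter.

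Among the 11 phosphatases and inhibitors, 3 were higher and 8 lower. *PTPRJ* had 0.16 (SE 0.06, adjusted p = 0.374), and *PTPRC*, which encodes the CD45 used in the sort, had -0.03 (adjusted p = 0.918). 0 of the 11 passed the threshold in edgeR or DESeq2, and 2 had an unadjusted edgeR p under 0.05.

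Of the TREM2 ligands and sheddases, *APOE*, a lipoprotein that binds TREM2, was at 37.8 ± 4.10 CPM in AppHu and 48.1 ± 2.72 CPM in AppSAA, without overlap. Its log2 fold change was 0.35 (SE 0.08). edgeR's adjusted p was 0.147 and that of DESeq2 0.0174, so the call depended on the tool. *ADAM10*, a protease that sheds TREM2, was at 853 ± 50.3 and 824 ± 43.3 CPM (-0.05, edgeR adjusted p = 0.845). *APOA1* was under the filter. In the list of DAM genes that do not need TREM2 in mice, to which *APOE* also belongs, 4 of 5 were higher with a median of 0.09, and *B2M* had 0.13 (adjusted p = 0.650).

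Of the 10 DAM genes that need TREM2 in mice, 9 were tested, 5 higher and 4 lower, with a median log2 fold change of 0.18. *CD9* was at 4.04 to 14.6 CPM in AppHu and 27.4 to 61.2 CPM in AppSAA, and rose by a log2 fold change of 2.22 (SE 0.32, edgeR adjusted p = 0.0331), or 2.03 (adjusted p = 0.0274) without AppSAA replicate 5. *ITGAX*, the integrin CD11c, was at 387 to 474 CPM in AppHu and 527 to 619 CPM in AppSAA. Its log2 fold change was 0.40 (SE 0.07). edgeR's adjusted p was 0.0565, and that of DESeq2 was 0.00101. The other genes of this list with an unadjusted p under 0.05, named after their values were seen, were *LPL* (0.30, edgeR adjusted p = 0.237), *LILRB4* (0.18, adjusted p = 0.290) and *AXL* (-0.21, adjusted p = 0.388), and *CST7* was under the filter. *CD9* was not called with the library total or the mouse share as a covariate, nor without AppHu replicate 3, 7 or 8 or AppSAA replicate 6 or 8. It was named in earlier results of these samples, so its rise is not independent evidence. In AppSAA the summed level of the CNS-associated macrophage markers, given above, extended lower than in AppHu. Their log2 fold changes were -0.43 for *MRC1*, -0.54 for *CD163*, -0.48 for *LYVE1*, -0.70 for *F13A1*, -0.12 for *STAB1* and 0.23 for *SIGLEC1*. The edgeR adjusted p ran from 0.185 (*MRC1*) to 0.932 (*SIGLEC1*). The part of such cells in these values was not tested.

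**Figure D4:**
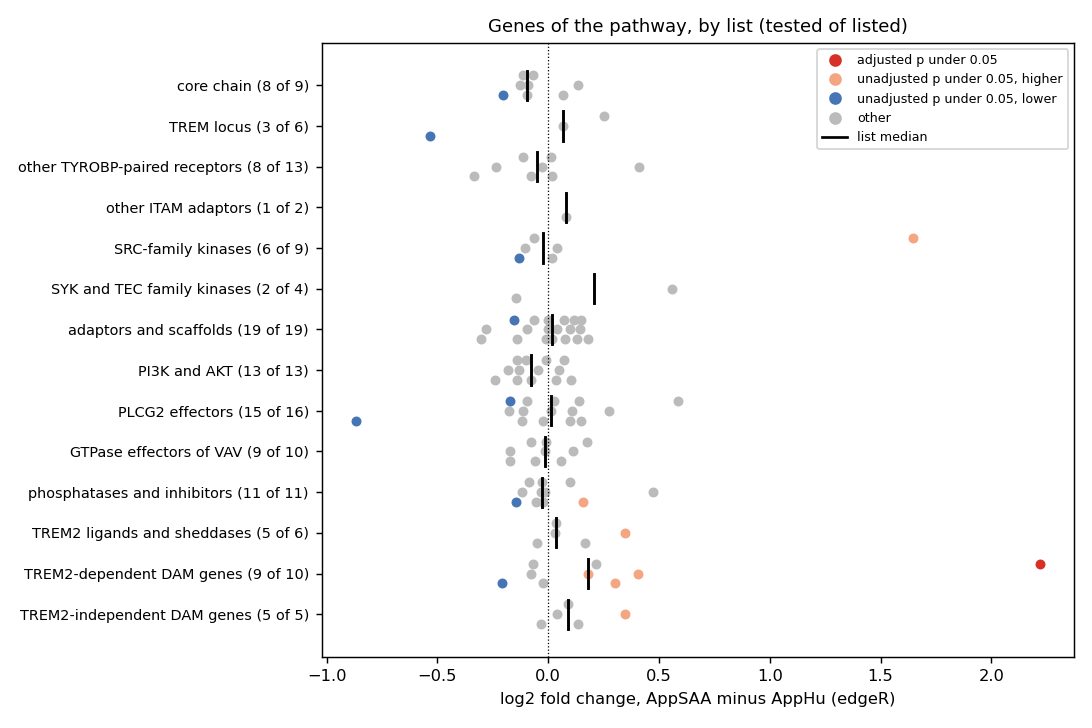
edgeR log2 fold change (horizontal axis, AppSAA minus AppHu) of each gene tested, by list (rows, with the number tested of those listed), where a vertical bar is the list median and the vertical offset of the points has no meaning. The bars of most lists lie near 0, *CD9* at 2.22 is the only gene past the adjusted threshold, and *FGR* at 1.65 is the point to the far right among the SRC-family kinases.

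The mouse genes of the chain gave a measure of host RNA in the sorted cells. Mouse *Trem2* had 126 to 257 counts (median 170) in AppHu and 124 to 398 (median 179) in AppSAA, and *Tyrobp* had 88 to 300 (median 224) and 149 to 485 (median 229). *Hcst* had 0 to 3 counts per library. *Trem1* was at 0 in 8 libraries, with 11 counts in AppHu replicate 8 and 27 in AppSAA replicate 6. For the 8 human genes tested, at least 93.5% of the human and mouse counts were human in every library, so host reads could add little to the human values. Whether the mouse counts came from mouse cells or from human reads placed on the mouse genome cannot be told apart.

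Within the mouse counts, edgeR called 0 of 9376 mouse genes (0.00%), with 878 (9.36%) at an unadjusted p under 0.05, and DESeq2 called 12. Among the 7 counterparts tested, both tools called 0, and 5 had an unadjusted edgeR p under 0.05, all higher in AppSAA. These were *Tyrobp* (log2 fold change 1.01, SE 0.36, adjusted p = 0.456), *Trem2* (0.77, SE 0.32, adjusted p = 0.486), *Btk* (1.28), *Vav1* (0.76) and *Inpp5d* (0.55). Such differences were not limited to the chain. Of mouse genes outside it, seen after the fit, *Fcer1g* had 1.04 (edgeR adjusted p = 0.456) and *Ptprc* 0.78 (adjusted p = 0.463). *Fcgr3* had 0.34 (adjusted p = 0.683) and *Inpp4a* 0.10 (adjusted p = 0.974). All these differences are relative to all mouse counts, which made up a smaller share of several AppSAA libraries. Without AppSAA replicate 5, which held the most *Trem2*, *Tyrobp*, *Inpp5d* and *Vav1* counts of all libraries, *Trem2* had 0.38 (adjusted p = 0.763) and *Tyrobp* 0.68 (adjusted p = 0.696).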

How the data were processed

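The authors sorted hMG, made full-length cDNA (SMART-Seq HT PLUS), aligned single reads with STAR 2.7.11a to combined mm10 and GRCh38 and counted them with featureCounts 2.0.1. The authors deposited whole-number counts per gene without normalization. The annotation release, strand setting and handling of reads that fit several genes are not given in the sources used here.

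Human genes were kept if 6 or more of the 10 libraries reached 10 counts (15455 genes), a reading of the study's filter that does not keep exactly the number of genes the study gives, and were tested with edgeR 4.0.16 in R 4.3.3 (TMM factors, quasi-likelihood test, no covariates, Benjamini-Hochberg adjustment, threshold 0.05). Mouse genes were tested separately in the same way. Each standard error was derived from the F statistic. CPM (counts per 1000000 human counts, after TMM) were used as levels. Single genes were compared by two-sided exact permutation of log2 CPM (prior count 2), in Python 3.11.15 with scipy 1.17.1. All 10 libraries gave 252 arrangements, and tests without AppSAA replicate 5 had fewer. Groups came from the sample labels, where AppHu is named AppKI. Library pairs of a group differed beyond sampling noise (chi-square per degree of freedom 12.2 to 79.4).

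The members and lists were chosen with earlier results of these data known. Named genes are the chain genes and their mouse counterparts, those past the threshold in a list or else its 2 genes with the smallest p, its most abundant gene, markers, and the 5 genes most like *TREM2* and *TYROBP*. On simulated data with 200 of 15455 genes changed by 1 on the log2 scale, edgeR recovered 68 to 72.5% of them, and up to 7.48% of its calls were false. The fitted changes of the chain genes, -0.20 to 0.13, were smaller than those simulated. No deviating library was simulated either, so this rate does not apply to the chain genes. Alternatives were DESeq2 1.42.0, limma 3.58.1 (voom with quality weights), other normalizations and filters, thinning, covariates, a replicate block and each library left out. Fits that left out AppSAA replicate 5 in DESeq2, and with no filter, were added after seeing the data. Some genes that this rule names are not reported here.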

Additional observations from a re-analysis of the deposited data

Results flagged for a closer look

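In 90 groups of 5 libraries, the highest or lowest library was set against the others of its group by its gap relative to the group's range, a rule by which chance flags about 1 in 20 groups. It flagged 12 values, of which 6 were of AppSAA replicate 5. In that library *TREM2* was at 794 CPM (628 to 665 in the other AppSAA libraries), *SYK* at 411 CPM (557 to 606) and *INPP5D* at 878 CPM (1535 to 1628). Of the pathway genes, *FCER1G* was at 617 CPM (477 to 511) and *RHOA* at 636 CPM (529 to 549), and mouse *Vav1* had 199 counts (75 to 98). The cause was not tested.

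In other libraries, *TREM1* was at 0.272 CPM in AppHu replicate 7 (0 to 0.0360 in the other AppHu libraries) and *FCER1G* was at 429 CPM in the same library (496 to 522). *ZAP70* was at 0.360 CPM in AppHu replicate 3 (0.260 to 0.281), and *RAC2* at 18.6 CPM in AppSAA replicate 7 (21.6 to 22.2). Mouse *Trem1* had 11 counts in AppHu replicate 8 and 27 counts in AppSAA replicate 6, with 0 in the other 4 libraries of each group.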

How the results depend on the processing

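No chain gene was called in any of the 22 alternatives. The number of human genes called was 12, against 215 with DESeq2, 52 with limma-voom, 32 with no filter, 1 with the library total and 5 with the mouse share as covariate, 59 with the replicate block, and 2 to 34 with 1 library left out. Without AppSAA replicate 5 it was 325 in DESeq2 and 58 with no filter, both chosen after seeing the data. The 1 pathway gene called became 3 with DESeq2, 2 with limma-voom, 0 with either covariate and 0 to 1 with 1 library left out (0 without AppHu replicate 3, 7 or 8 or AppSAA replicate 6 or 8). Without AppSAA replicate 5 it was 3 in DESeq2 and 2 with no filter. The log2 fold change of *TREM2* (0.06) became -0.0021 with the library total, -0.00016 with the replicate block, and, without AppSAA replicate 5, -0.0065 in DESeq2 and -0.010 with no filter; with 1 library left out it ran from -0.0069 to 0.089. That of *PLCG2* (-0.11) became 0.014 with the library total. That of *INPP5D* (-0.13) became 0.012 with the block, 0.0041 in DESeq2 and 7.9e-05 with no filter without replicate 5, and ran from -0.17 to 0.0036 with 1 library left out. The block took no group difference from AppHu replicate 3 or AppSAA replicate 5, whose numbers each occur in only 1 group. Its sign changes of *TREM2* and *INPP5D* are therefore not separate from leaving out AppSAA replicate 5. *TYROBP*, *HCST*, *SYK*, *VAV1* and *BTK* kept their sign in all alternatives. The replicate numbers do not pair the mice by the labels; same-numbered libraries correlated at 0.06, 0.03, 0.18 and 0.11 for numbers 4, 6, 7 and 8, and 2 of these 4 numbers matched their own number best. Depth limits *TREM1*, *FGR*, *ZAP70* and *RASGRP1*, which rest on few counts; the limits given for counts of 0 cover counting error only, and the fitted intervals and p-values include the spread between single mice.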
